A study of Mus musculus with 745 samples.

Results

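Receptors that bind lipoproteins or modified lipids were followed in single endothelial cells of the mouse brain. The set held 9 genes, taken by symbol from the deposited count table of 20607 genes: 5 of the low-density lipoprotein (LDL) receptor family (Lrp1, Lrp6, Lrp8, Lrp10 and Vldlr) and 4 other lipoprotein or scavenger receptors (Scarb1, Lsr, Cd36 and Stab1). All 9 symbols were in the table. The series, whose title concerns the passage of circulating proteins into the brain, held 745 samples, each 1 sorted primary brain endothelial cell of a mouse aged 3 months. The cells were freed with a neural dissociation kit and isolated by fluorescence-activated sorting, with gate markers, strain and sex not given in the sources used here. Titles divided the cells into 3 sets, Young1 (30.2% of the cells), Young2 (34.6%) and AY_Y3 (35.2%). What a set stands for (an animal, pooled animals or a plate) is not labelled, so the spread over sets may be technical. Set entered the fit as a block. The p-values therefore measure only how differences between classes vary over sets, which may be technical too.

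Receptors of the LDL family carry clusters of ligand-binding repeats and mostly work by endocytosis: they take a ligand into the cell at neutral pH and release it in acid endosomes. Some members signal instead, Lrp6 as the Wnt co-receptor beside Frizzled, and Lrp8 and Vldlr as the receptors for reelin. In the brain endothelium, which forms the blood-brain barrier, such receptors are studied as routes for apolipoproteins and other plasma proteins, and Wnt signalling keeps the barrier's properties. Scarb1 takes up cholesteryl esters from high-density lipoprotein, Cd36 takes up fatty acids and oxidised lipoproteins, and Stab1 is a scavenger receptor best known from sinusoidal endothelium and macrophages. Lsr binds lipoproteins in the liver and, as angulin-1, recruits tricellulin to the corners where 3 endothelial cells meet.

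Counts are reads per gene without molecular identifiers, and CPM is the gene's reads scaled to a total of 1000000 in that well. A well is the plate position of 1 sorted cell. Of the 745 wells, 79 carried transcripts of another cell type and were set aside (58 with pericyte, 13 with astrocyte, 5 with oligodendrocyte-lineage and 3 with smooth muscle markers), which left 666 endothelial wells, 30.5% of them in Young1, 34.2% in Young2 and 35.3% in AY_Y3. Total counts per endothelial well ran from 52819 to 2421434, with medians of 740716, 678223 and 407470 in Young1, Young2 and AY_Y3. All 12 endothelial markers had counts in each marker class, at a summed 17891 to 21386 CPM over sets and classes. In single endothelial wells their sum had a median of 19955 CPM and a lowest value of 7418 CPM. Wells set aside had them too, with medians of 20978 CPM for astrocyte-marker and 16056 CPM for pericyte-marker wells, so this sum does not separate them from endothelial wells. Wells were classed by 6 segment markers at 10 CPM or more. Arterial-marker wells (Bmx or Gkn3) were 18.2% of the 666, with 23, 50 and 48 wells in Young1, Young2 and AY_Y3. Venous-marker wells (Nr2f2 or Il1r1) were 19.8%, with 40, 48 and 44 wells, and the other 385 tested wells were capillary-marker wells (Cxcl12 or Rgcc and none of the other 4 markers). A further 18 wells held arterial and venous markers together and 10 held none of the 6. Neither group entered a test. In 46 of the 666 wells (6.91%) an arterial or venous marker lay between 5 and 20 CPM, near the class limit. Of longer marker lists without these 6 genes, 12 of 13 arterial and 9 of 12 venous markers were highest in their own class, but only 2 of 8 capillary markers were.

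Detection divided the genes into 6 found in a large share of wells and 3 found in few. Lsr had a count in 85.9% of the 666 wells (exact binomial 95% interval 83.01 to 88.44), more than 99.1% of all genes in the table. Scarb1 followed at 48.9%, Lrp10 at 36.8%, Lrp8 at 34.2%, Lrp6 at 31.1% and Stab1 at 22.5%. Lrp1 was found in 8 wells (1.20%), Vldlr in 7 (1.05%) and Cd36 in 3 (0.450%). Cd36 lay at 3 counts in 666 wells, the limit used here for a gene with none. Intervals and limits cover counting error only.

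Lsr detection was 80.3% in Young1, 85.1% in Young2 and 91.5% in AY_Y3. Scarb1 was found in 42.4%, 43.4% and 60% of wells in the same order, and Stab1 in 16.3%, 21.5% and 28.9%. AY_Y3 was thus the highest set for these 3 receptors although its wells had the fewest reads. After every well was thinned to 50000 counts, Lsr stood at 78.3%, 79.8% and 88.5%, Scarb1 at 37.4%, 40.8% and 56.2% and Stab1 at 14.3%, 20.2% and 24.7%, so AY_Y3 stayed highest at equal depth. Lrp10 was highest in AY_Y3 too, at 30.05%, 38.2% and 41.3% as deposited and 27.6%, 32.02% and 35.3% thinned. The median number of genes per thinned well was also highest in AY_Y3 (1548, 1661.5 and 1835 in Young1, Young2 and AY_Y3); its part in these shares was not tested. Each set is 1 sample, so the sets were not compared by a test. Among the 6 commonly detected receptors the Wnt co-receptor Lrp6 varied least over sets, at 30.05%, 32.5% and 30.6% as deposited and 25.1%, 26.8% and 26.4% thinned.

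**Figure D1:**
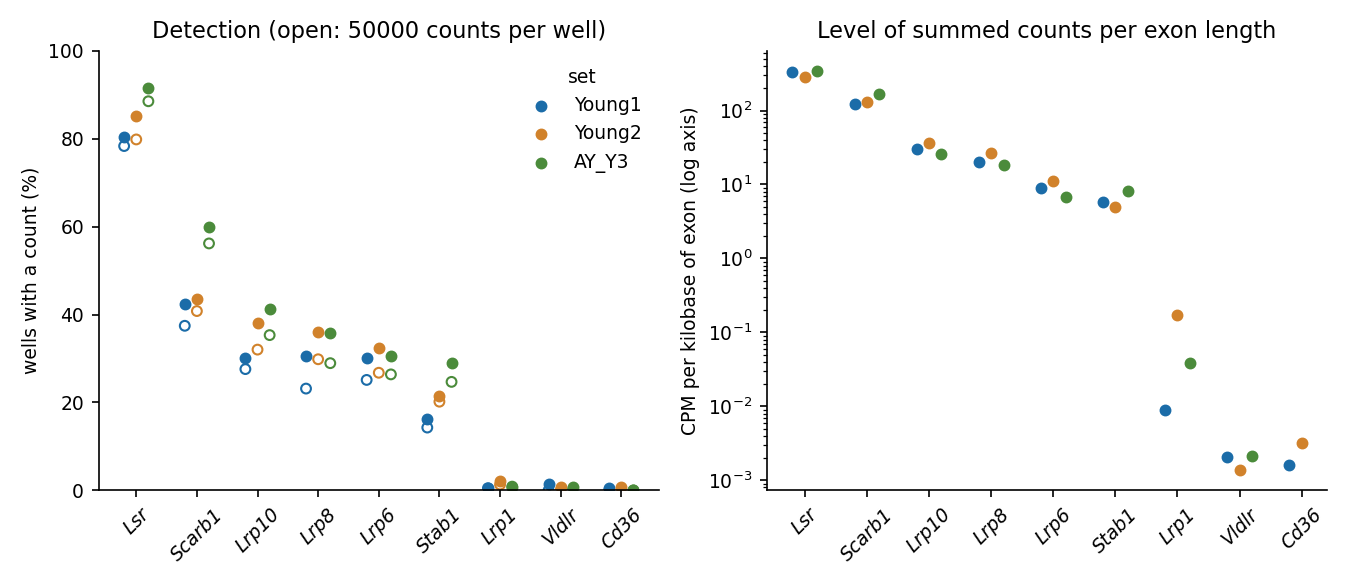
Left, the share of endothelial wells with a count of each receptor (percent) in each of the 3 sets, filled points as deposited and open points at 50000 counts per well. Right, CPM of the summed counts per kilobase of exon on a log axis, where a set at 0 is not drawn. Lsr and Scarb1 stand above the rest, and Lrp1, Vldlr and Cd36 lie at the bottom of both panels.

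Levels between genes were compared per kilobase of exon, from the counts summed over the endothelial wells of each set. Lsr was highest, at 319.9 ± 30.3 CPM per kilobase (SD, n = 3 sets), and Scarb1, the high-density lipoprotein receptor, was next at 140.07 ± 25.5. The ranges of these 2 receptors over sets did not overlap each other or those below them. Lrp10 (30.9 ± 5.21), a little-studied family member that shuttles between endosomes and the Golgi, and Lrp8 (21.9 ± 4.48) overlapped, since the lowest Lrp10 set was at 26.04 and the highest Lrp8 set at 26.9. Lrp6 (8.91 ± 2.08) and Stab1 (6.34 ± 1.69) likewise overlapped, with the lowest Lrp6 set at 6.84 and the highest Stab1 set at 8.23. Lrp1 came to 0.0723 ± 0.0859 CPM per kilobase, with an SD above its mean. Vldlr and Cd36 rested on 7 and 3 reads in all, 1 read per well, and none of these wells kept a count after thinning.

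The distribution over wells differed in shape. Per well, Lsr had a median of 539.5 CPM in Young1 (range 0 to 3413), 514.8 in Young2 (0 to 2488) and 659.2 in AY_Y3 (0 to 4421). Scarb1 had a median of 0 CPM in Young1 and Young2 and 197.2 CPM in AY_Y3, with highest wells at 4220, 4343 and 2781 CPM. For Lrp6, Lrp8, Lrp10 and Stab1 the median well was at 0 in every set. Among wells with a count, the median was 677.5 CPM for Lsr, 495.7 for Scarb1, 235.1 for Lrp10, 195.01 for Lrp6, 141.9 for Lrp8 and 106.5 for Stab1. The highest 67 wells held 30.6% of all Lsr CPM but 53.1% of Scarb1, 67.2% of Lrp10, 72.7% of Lrp6, 78.9% of Lrp8 and 87.8% of Stab1. Most Stab1 and Lrp8 signal therefore came from few wells.

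**Figure D2:**
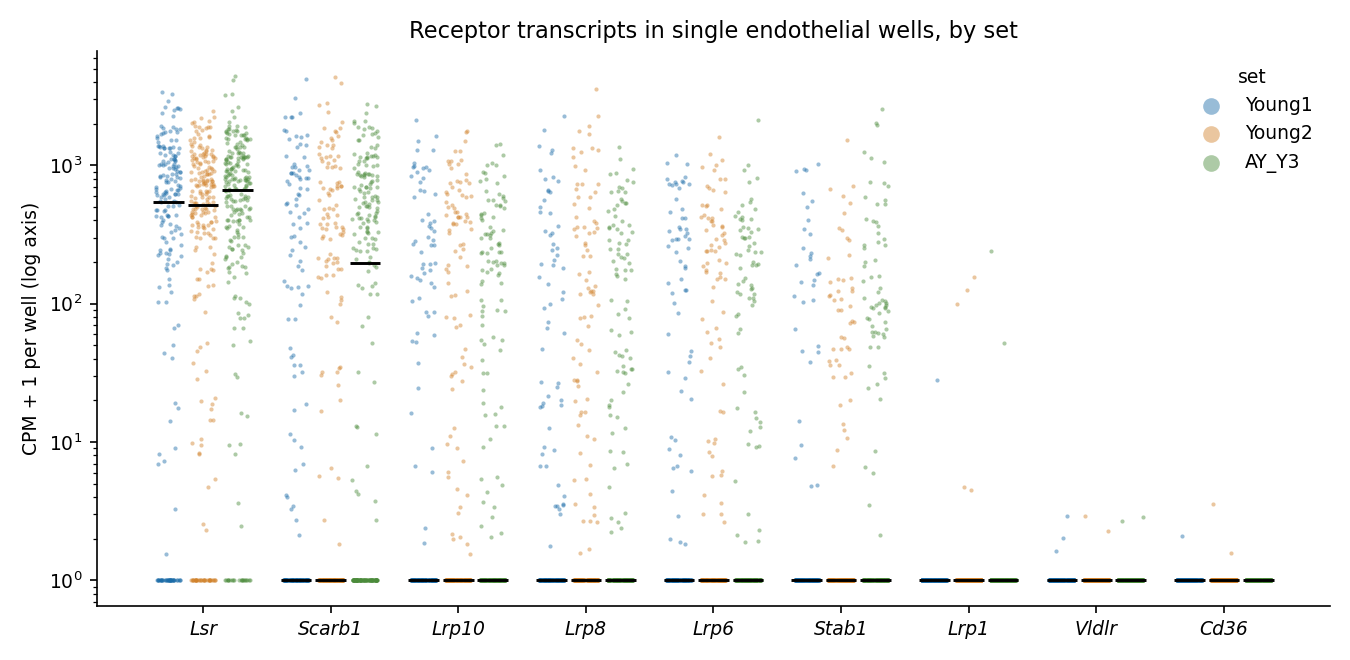
CPM + 1 of each receptor (log axis) in every endothelial well, 1 point per well, coloured by set. Lsr is above 0 in 85.9% of wells, Scarb1, Lrp10, Lrp8 and Lrp6 are split between wells at 0 and wells with high levels, and Lrp1, Vldlr and Cd36 are at 0 in nearly all.

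Pairs of the 6 commonly detected receptors shared at least as many wells as the product of their single shares gave. Of the 666 wells, 19 (2.85%) had no count of any of the 9 genes, 18.2% had 1 of them, 29.4% had 2 and 24.6% had 3, and no well had more than 7. At equal depth Lsr and Scarb1 shared, to within 1 well, the 250.6 wells that the product of their shares within sets gave. By the ratio to that product, the highest pairs were Lrp6 with Stab1 (49 wells against 34.9), Lrp8 with Stab1 (49 against 37.2) and Lrp6 with Lrp10 (71 against 55.5). Spearman correlations over wells within sets were weak for every such pair, with set means from -0.06 (Lsr and Stab1) to 0.11 (Lrp8 and Stab1), over the 666 wells. Receptors also correlated with the number of genes in a thinned well, by a mean rho of 0.29 for Lrp6, 0.21 for Lrp10 and for Stab1, 0.16 for Scarb1 and for Lrp8 and 0.05 for Lsr, and pairs share these wells.

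Along the segment markers, Lrp8, Stab1, Scarb1 and Lrp6 had their lowest summed level in arterial-marker wells within each of the 3 sets. None of these differences passed the main test, and the detection of Lrp6 did not follow this order. Lrp8, known as ApoER2, binds reelin, apolipoprotein E and selenoprotein P. Its level in summed counts was 2.16, 30.98 and 31.6 CPM in arterial-marker wells of Young1, Young2 and AY_Y3. Capillary-marker wells had 108.6, 167.5 and 113.6 CPM, and venous-marker wells 108.6, 155.3 and 77.1 CPM. The highest arterial set lay below the lowest capillary and the lowest venous set, so arterial values overlapped neither class. Among the 6 tested receptors this held for 2, Lrp8 and Stab1, and it held for 4.61% of all 8932 genes tested. The fitted log2 fold change was -2.85 ± 0.80 (SE) for arterial against capillary (edgeR, p = 0.00879, adjusted p = 0.317) and -2.68 ± 0.81 for arterial against venous (edgeR, p = 0.0122, adjusted p = 0.227). Neither passed the adjusted threshold of 0.05 over 8932 genes. Arterial Lrp8 rested on 26 wells with a count, 21.5% of that class.

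Stab1 had 0, 9.49 and 17.1 CPM in arterial-marker wells of Young1, Young2 and AY_Y3. Capillary-marker wells stood at 39.4, 42.2 and 84.7 CPM and venous-marker wells at 98.3, 71.8 and 81.8 CPM. Again no arterial set reached a set of the other classes, and capillary and venous values overlapped. The log2 fold change was -2.99 ± 1.48 for arterial against capillary (edgeR, p = 0.0805, adjusted p = 0.735) and -3.83 ± 1.57 against venous (edgeR, p = 0.0432, adjusted p = 0.397). At equal depth Stab1 was found in 0%, 14% and 14.6% of arterial-marker, 11.9%, 19.2% and 22.3% of capillary-marker and 32.5%, 31.2% and 40.9% of venous-marker wells. With 23 arterial-marker wells in Young1, that 0% allows a share of up to 13.04% by a limit of 3 counts, and 17 arterial-marker wells of the 3 sets (14.05%, exact 95% interval 8.40 to 21.5) had a count as deposited. Stab1 is also a macrophage gene. Microglia and macrophage markers summed to 76.4 to 114.75 CPM in arterial-marker wells (3 of 10 with a count), 40.4 to 68.1 CPM in capillary-marker wells and 37.9 to 67.2 CPM in venous-marker wells (8 of 10 each), and Pf4 was at 0 in all 3 classes.

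Scarb1 stood at 187.8, 157.6 and 322.8 CPM in arterial-marker, 286.3, 387.6 and 444.8 CPM in capillary-marker and 457.9, 377.0 and 550.8 CPM in venous-marker wells of Young1, Young2 and AY_Y3. Arterial and venous values did not overlap, as for 3 of the 6 receptors (Lrp8, Scarb1 and Stab1) and 9.72% of all tested genes, while the highest arterial set exceeded the lowest capillary set. The log2 fold change was -1.05 ± 0.22 for arterial against venous (edgeR, p = 0.00157, adjusted p = 0.0677) and -0.75 ± 0.22 for arterial against capillary (edgeR, p = 0.0095, adjusted p = 0.335). Over the 14 alternatives the first adjusted p ran from 6.04e-05 to 0.482. It was under 0.05 with DESeq2, with limma, with classes from the longer marker lists (0.0421) and with wells at equal depth (0.0398). At equal depth Scarb1 was found in 21.7%, 32% and 43.8% of arterial-marker wells, against 36.3%, 34.2% and 53.1% of capillary-marker and 52.5%, 64.6% and 72.7% of venous-marker wells.

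Lrp10 and Lsr had no such order, and Lrp6 had it in summed counts only, with overlapping groups. Lrp10 had 192.05, 190.95 and 81.6 CPM in arterial-marker, 102.7, 123.2 and 100.1 CPM in capillary-marker and 113.05, 160.4 and 189.98 CPM in venous-marker wells of Young1, Young2 and AY_Y3. The arterial sets straddled both other classes. Lrp6 had 66.3, 94.3 and 41.2 CPM in arterial-marker, 88.5, 94.9 and 55.3 CPM in capillary-marker and 68.99, 137.4 and 111.5 CPM in venous-marker wells, and every pair of classes overlapped. Its log2 fold change for arterial against capillary, -0.24 ± 0.39 (edgeR, adjusted p = 0.938), changed sign with limma (0.38) and with markers taken at 50 CPM (0.27). At equal depth Lrp6 was found in 30.4%, 28% and 27.1% of arterial-marker wells, above the 21.5%, 20% and 23.1% of capillary-marker wells. Venous-marker wells had it in 32.5%, 41.7% and 31.8%. Lsr had 964.6, 715.5 and 821.5 CPM in arterial-marker, 649.4, 552.0 and 751.2 CPM in capillary-marker and 731.0, 713.0 and 710.4 CPM in venous-marker wells. In summed counts arterial Lsr was above capillary and venous Lsr within each of the 3 sets, but its arterial range overlapped both others. The log2 fold change was 0.40 ± 0.16 against capillary (edgeR, p = 0.0352, adjusted p = 0.588) and 0.25 ± 0.16 against venous (edgeR, adjusted p = 0.614). The latter turned to -0.48 with limma and -0.0622 with markers at 50 CPM. At equal depth Lsr was found in 82.6%, 80% and 89.6% of arterial-marker wells, below the 92.5%, 89.6% and 93.2% of venous-marker wells. Capillary-marker wells had it in 72.6%, 75% and 85.4%.

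**Figure D3:**
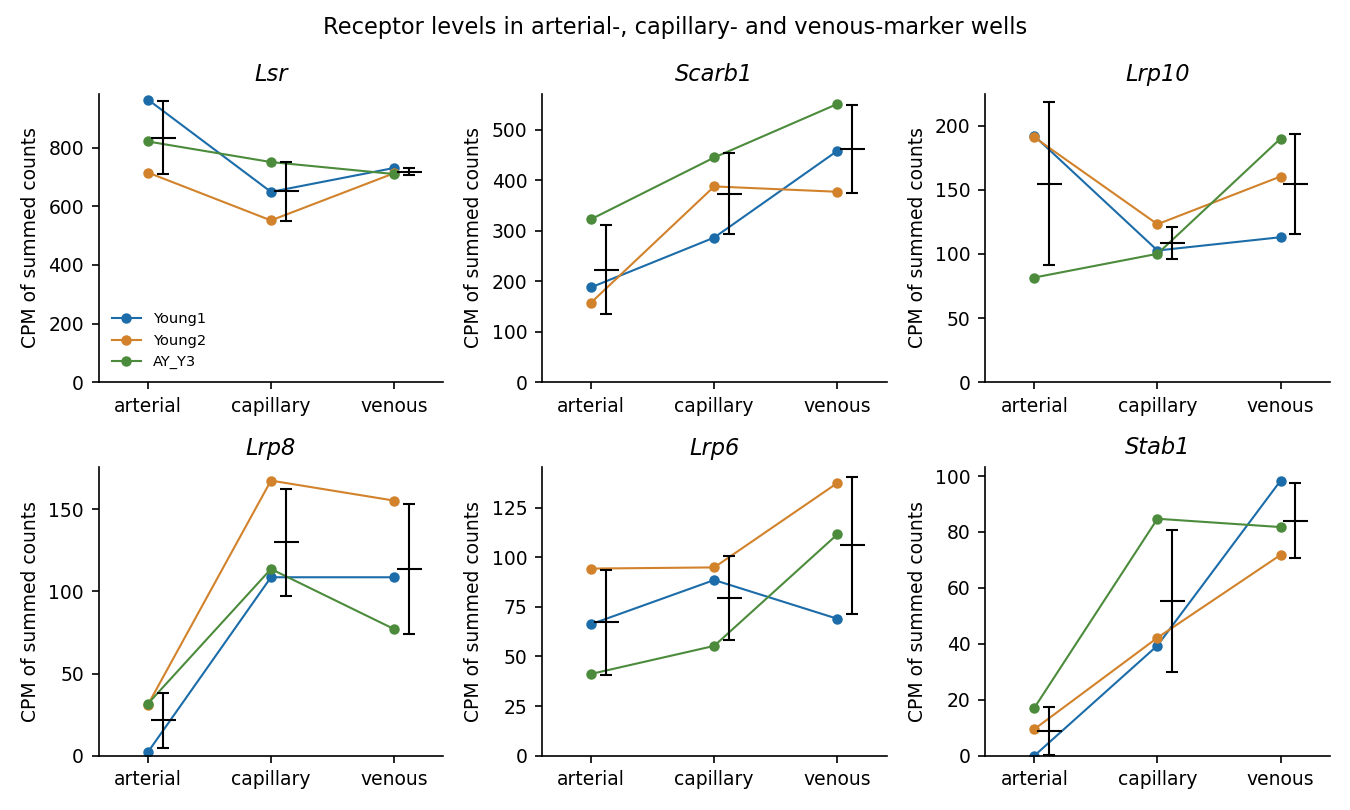
CPM of the summed counts (linear axis from 0) of 6 receptors in arterial-, capillary- and venous-marker wells, 1 point per set, with lines joining the same set across classes. Lrp8 and Stab1 have all 3 arterial points below every other point, while Scarb1, Lrp10, Lrp6 and Lsr do not.

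No receptor passed the main test. edgeR called 0 of the 6 tested receptors at an adjusted p under 0.05 in each of the 3 comparisons, where it called 0.325% of all 8932 genes for arterial against capillary, 0.123% for venous against capillary and 1.81% for arterial against venous. At an unadjusted p under 0.05 it gave 3 receptors for arterial against capillary (Lrp8, Lsr and Scarb1, background 7.6%), 0 for venous against capillary (background 4.59%) and 3 for arterial against venous (Lrp8, Scarb1 and Stab1, background 11.8%). DESeq2, with adjusted p-values, called 2 receptors for arterial against capillary (Lrp8 and Scarb1, background 6.08%), 0 for venous against capillary (2.68%) and 3 for arterial against venous (Lrp8, Scarb1 and Stab1, 10.7%), each of them lower in arterial-marker wells. limma on the mean log2 level per well called 1 (Lrp8, 4.56%), 1 (Scarb1, higher in venous wells, adjusted p = 0.0332, 2.75%) and 3 (Lrp8, Scarb1 and Stab1, 9.19%) in the same order of comparisons. The median log2 fold change of the 6 receptors was -0.49 for arterial against capillary, 0.37 for venous against capillary and -0.86 for arterial against venous, where all genes had -0.08, -0.02 and -0.06. Lrp1, Vldlr and Cd36 had counts in under 5% of wells and were not tested. The 3 comparisons share their wells, so they are not independent of each other.

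No receptor passed for venous against capillary. The log2 fold changes for venous against capillary were 0.43 ± 0.39 for Lrp6, -0.16 ± 0.73 for Lrp8, 0.53 ± 0.39 for Lrp10, 0.30 ± 0.21 for Scarb1, 0.15 ± 0.16 for Lsr and 0.84 ± 1.34 for Stab1. Every adjusted p was 0.99958 (edgeR), and the standard errors of Lrp8 and Stab1 leave large differences possible in either direction. Detection at equal depth gave a wider gap for some receptors: Lrp10 was found in 42.5%, 39.6% and 61.4% of venous-marker wells of Young1, Young2 and AY_Y3, against 21.5%, 25% and 27.7% of capillary-marker wells. Venous-marker wells held more genes, with medians of 2185, 2142 and 2159.5 genes at equal depth against 1423, 1462 and 1680.5 in capillary-marker wells. Over all genes found in at least 10% of capillary-marker wells, the median ratio of venous to capillary detection was 1.45, 1.35 and 1.18 in the 3 sets. The ratio for Lrp10 was 1.98, 1.58 and 2.22 and that for Stab1 2.74, 1.63 and 1.83, above these medians, as was that for Lrp6 at 1.51, 2.08 and 1.38. The ratio for Scarb1 was 1.45, 1.89 and 1.37 and that for Lrp8 1.58, 1.35 and 0.962, while that for Lsr was 1.27, 1.19 and 1.09, below them. Lrp8 in arterial-marker wells had a ratio to capillary of 0.391, 0.649 and 0.441, where the medians were 1.08, 1.28 and 1.09. The part of the gene number in these shares was not tested.

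**Figure D4:**
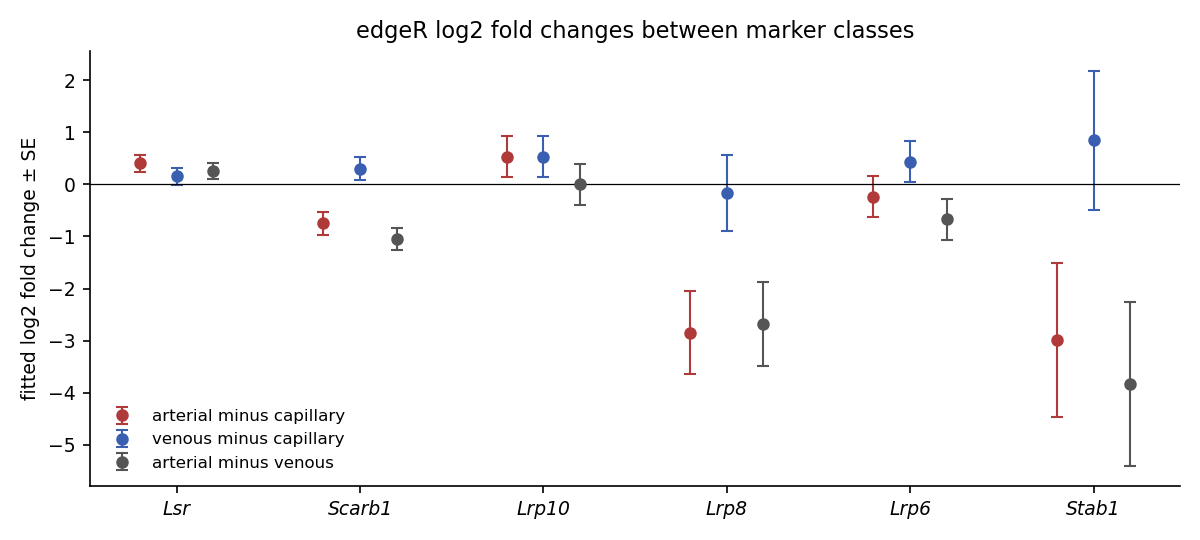
Fitted edgeR log2 fold changes (points) with their standard errors (bars) for the 6 tested receptors in the 3 comparisons of marker classes. The arterial comparisons of Lrp8, Stab1 and Scarb1 lie below 0, and the bars of Stab1 are the longest.

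Taken singly, both arterial markers went with lower Lrp8, Scarb1 and Stab1 in all 3 sets. Bmx and Gkn3 define the arterial class, and Nr2f2 and Il1r1 the venous class. Splits by these markers regroup largely the same wells, so they are no separate evidence for the class differences. Some wells hold both Bmx and Gkn3, so the results of these markers are not independent of each other. The summed level of Lrp8 was 28.5 ± 13.5 CPM (SD, n = 3 sets) in wells with Bmx, an arterial kinase gene, and 122.7 ± 31.7 CPM in wells without it, lower in each set. With and without Gkn3, another arterial gene, it was 34.4 ± 31.98 and 108.6 ± 24.4 CPM. With and without Bmx, Scarb1 had 214.3 ± 95.3 and 392.6 ± 74.97 CPM, and Stab1 had 10.5 ± 11.4 and 61.4 ± 18.04 CPM. With and without Nr2f2, which encodes the venous factor COUP-TFII, Stab1 had 91.7 ± 23.1 and 42.7 ± 17.7 CPM, higher with the marker in 3 of 3 sets. With and without Il1r1, the other venous marker, Stab1 had 55.4 ± 28.2 and 50.1 ± 15.97 CPM, higher with it in 1 of 3 sets. Its detection at equal depth was 32.3% with Il1r1 and 17.4% without, and its rho with Il1r1 was positive in all 3 sets, with a mean of 0.16. Lrp6 was at 125.8 ± 20.01 CPM in wells with Il1r1 and 74.99 ± 24.9 CPM without, higher in 3 of 3 sets. Scarb1 was higher with Nr2f2 too, at 444.5 ± 66.5 CPM with it and 335.5 ± 80.7 CPM without, in 3 of 3 sets. The capillary markers Rgcc and Cxcl12 went with Scarb1 in 3 of 3 sets, Rgcc at 410.3 ± 38.4 CPM with it and 237.2 ± 113.2 CPM without, and Cxcl12 at 365.5 ± 55.4 CPM with it and 258.8 ± 134.99 CPM without. Over single wells these relations were weak: the largest of the mean Spearman correlations between a receptor and a marker was 0.20 (Stab1 and Nr2f2, over the 666 wells), and that of Lrp8 with Bmx was -0.15. Correlations over wells share library depth and are given as a description.

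The sequence before the transcription start is shown for Lsr, the most widely detected receptor, and for Lrp8 and Stab1, whose arterial levels overlapped no other class. Each line is the 250 bases up to the start, 5′ to 3′ on the gene's strand, from RefSeq on GRCm38.p6. Capitals mark matches on either strand to a GC box, the letters GGGCGG, which Sp1 factors bind. They also mark an ETS core, searched as CCGGAAG on both strands. A TATA box was searched on both strands as TATAAA, and none of the matches overlap.
Lsr (chr7:30973470-30973719, minus strand): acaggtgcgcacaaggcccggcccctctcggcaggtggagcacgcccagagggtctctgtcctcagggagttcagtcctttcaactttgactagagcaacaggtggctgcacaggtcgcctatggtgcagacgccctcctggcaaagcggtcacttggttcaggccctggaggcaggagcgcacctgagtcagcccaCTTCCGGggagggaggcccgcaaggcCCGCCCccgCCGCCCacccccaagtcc
Lrp8 (chr4:107802635-107802884, plus strand): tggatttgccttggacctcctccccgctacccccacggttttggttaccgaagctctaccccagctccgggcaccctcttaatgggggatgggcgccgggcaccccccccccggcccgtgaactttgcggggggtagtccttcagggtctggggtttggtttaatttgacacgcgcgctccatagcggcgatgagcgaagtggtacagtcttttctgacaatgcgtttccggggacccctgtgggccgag
Stab1 (chr14:31168642-31168891, minus strand): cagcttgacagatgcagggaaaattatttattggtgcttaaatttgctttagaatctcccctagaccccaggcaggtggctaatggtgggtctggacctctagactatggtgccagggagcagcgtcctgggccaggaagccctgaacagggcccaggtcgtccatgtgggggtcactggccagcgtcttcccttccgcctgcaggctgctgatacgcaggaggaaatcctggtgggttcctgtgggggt
The Lsr window was 66.8% G and C and held 2 GC boxes, 27 and 18 bases before the start, and 1 ETS core 53 bases before it. The Lrp8 window (62.4% G and C, the most upstream of 3 starts listed) and the Stab1 window (57.2%) held none of the 3 motifs. Among 32851 promoters of this length, 32.7% held a GC box, 6.91% an ETS core and 12.4% a TATA box, and the median G and C content was 52.4%. A match is a description of letters only. Promoters of 7 of the 9 receptors were in the RefSeq table; Lrp6 and Scarb1 were not matched.

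Lsr overlaps a second gene on the opposite strand, Gm4673, by 861 bases of exon in GENCODE M21. Gm4673 had a count in 493 endothelial wells, of which 484 also had Lsr and 9 did not. It was the only gene that reached a mean rho of 0.3 with any of the 6 commonly detected receptors: its rho with Lsr over wells was 0.82, 0.73 and 0.72 in Young1, Young2 and AY_Y3, a mean of 0.76 among 3893 candidate genes, and the next gene, Glul, reached 0.16. In wells with both, Gm4673 had a median of 1.61 reads per 100 Lsr reads (quartiles 1.17 and 2.57). The use of strand in counting is not given, so reads of the shared exon cannot be told apart, and Lsr and Gm4673 are uncertain to that extent. Gm4673 summed to 13039 reads, 4.08 per 100 Lsr reads. Nearest genes to the other receptors stayed under 0.3, such as Mfsd2a, a lysophospholipid transporter of brain endothelium, with Lrp8 at 0.28.

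Lrp1, the large endocytic receptor for apolipoprotein E and alpha2-macroglobulin, was rarely detected in endothelial wells. Its 8 wells had 3.48, 3.77, 27.2, 51.2, 99.1, 124.6, 154.9 and 240.7 CPM, and they came from 1 well of Young1, 5 of Young2 and 2 of AY_Y3. By class they were 1 arterial-marker, 3 capillary-marker and 4 venous-marker wells. At equal depth 6 of 666 wells (0.901%, exact 95% interval 0.331 to 1.95) had a count. In the 58 wells set aside for pericyte markers, 12 (20.7%, exact 95% interval 11.2 to 33.4) had one at the same depth, and the highest of them reached 515.9 CPM. Pericyte markers were present at low levels in the endothelial classes too, from 38.5 to 136.4 CPM in sum in arterial-marker wells (3 of 10 with a count), 179.1 to 332.4 CPM in capillary-marker wells (10 of 10) and 173.3 to 389.3 CPM in venous-marker wells (7 of 10), against 2066 to 41559 CPM in the wells set aside. Kcnj8 and Cspg4 were at 0 in arterial- and venous-marker wells. The part of these pericyte transcripts in the Lrp1 counts was not tested.

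**Figure D5:**
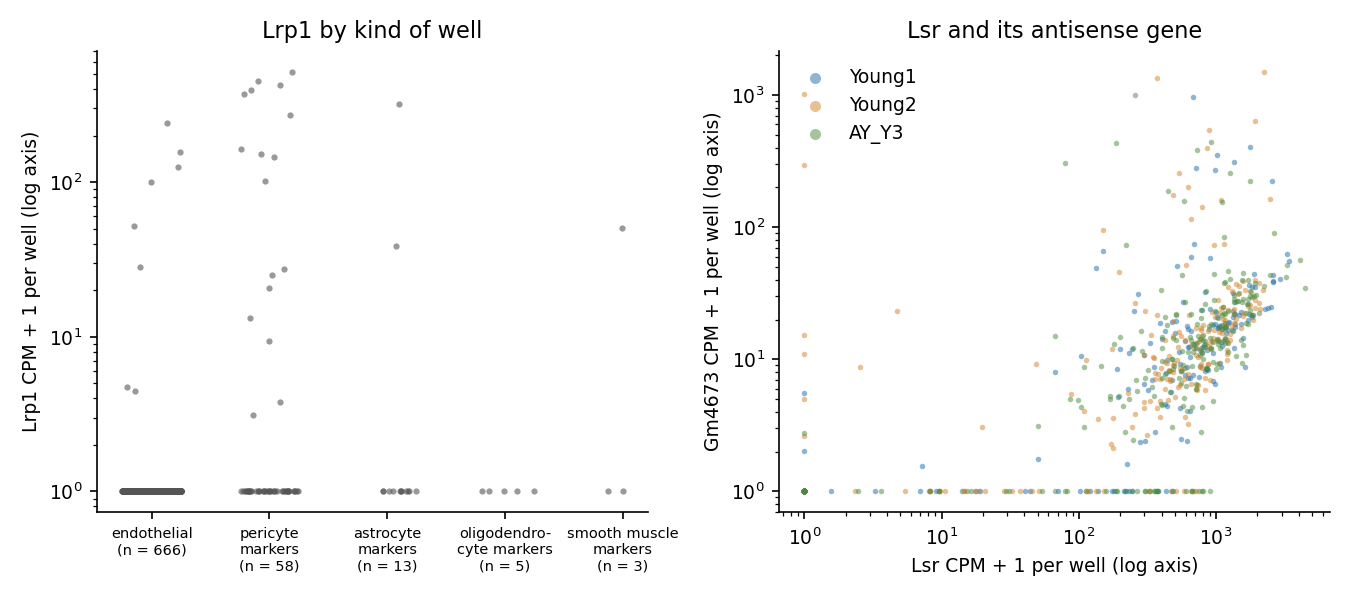
Left, Lrp1 CPM + 1 per well (log axis) in endothelial wells and in wells set aside for other cell types, with the number of wells under each. Right, Gm4673 against Lsr, CPM + 1 per endothelial well (log axes), coloured by set. Lrp1 is above 0 in 8 of 666 endothelial and 17 of 58 pericyte-marker wells, and most wells with Lsr lie along a band of low Gm4673 levels.

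The other receptors had counts in the wells set aside as well. At equal depth, pericyte-marker wells had Lsr in 82.8%, Scarb1 in 62.1%, Lrp8 in 37.9%, Lrp10 in 36.2% and Lrp6 in 32.8% of 58 wells, against 82.4%, 45.2%, 27.5%, 31.8% and 26.1% of endothelial wells. Stab1 was found in 15.5% of pericyte-marker wells and 19.97% of endothelial wells. These wells are no blank: their endothelial markers summed to a median of 16056 CPM, against 19955 CPM in endothelial wells. They also held more genes at equal depth, with a median of 2190 against 1673.5. Vldlr, the second reelin receptor, had its only count above 1 read in a well with oligodendrocyte-lineage markers, with 30 reads (19.5 CPM).

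Among the partners of these receptors, 4 lipid-handling genes and 1 Wnt gene passed the test. Of 12 tested genes for lipoproteins, lipases and sterol transfer, 2 were lower and 0 higher in arterial- than in capillary-marker wells, 0 were called between venous and capillary wells, and 3 were lower and 1 higher in arterial than in venous wells (edgeR, adjusted p under 0.05; over all genes 0.258% were lower and 0.0672% higher for arterial against capillary, and 0.773% lower and 1.04% higher for arterial against venous). The list medians were -0.42, 0.09 and -0.58 on the log2 scale, against -0.08, -0.02 and -0.06 for all genes. Abcg1, which exports cholesterol to high-density lipoprotein, had 0.720, 1.86 and 3.48 CPM in arterial-marker wells of Young1, Young2 and AY_Y3, against 96.3, 55.4 and 127.4 CPM in capillary-marker and 58.6, 116.2 and 114.6 CPM in venous-marker wells. Its log2 fold change was -5.68 ± 0.63 against capillary (edgeR, adjusted p = 0.0205) and -5.69 ± 0.63 against venous (edgeR, adjusted p = 0.00626). The first was not called without any 1 of the sets, with edgeR adjusted p-values of 0.0577 without Young1, 0.437 without Young2 and 0.477 without AY_Y3, and the second not without Young2 (0.136) or AY_Y3 (0.153). Its direction was the same under each of the 14 alternatives.

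Apod, the gene of apolipoprotein D, fell in arterial-marker wells to 48.9 ± 24.8 CPM (SD, n = 3 sets), from 160.5 ± 94.9 CPM in capillary-marker and 447.2 ± 174.4 CPM in venous-marker wells. Its log2 fold change was -1.64 ± 0.21 against capillary (edgeR, adjusted p = 0.0295) and -3.21 ± 0.22 against venous (edgeR, adjusted p = 0.00186). The first was lost under 8 of the 14 alternatives, among them each set left out (edgeR adjusted p of 0.114 without Young1, 0.503 without Young2 and 0.518 without AY_Y3). The second was lost without Young2 (0.0904) or AY_Y3 (0.0792). Pltp, which moves phospholipid between lipoproteins, was lower in arterial than in venous wells, at 2994 ± 386 against 4795 ± 510 CPM (log2 -0.64 ± 0.10, edgeR, adjusted p = 0.0231, and 0.316 without Young2, 0.304 without AY_Y3). Clu, the gene of clusterin or apolipoprotein J, was the 1 gene higher in arterial wells, at 1177 ± 484 against 5.59 ± 5.49 CPM in venous ones (log2 7.97 ± 1.42, edgeR, adjusted p = 0.0414). It was lost under 7 of the 14 alternatives, among them without Young1 (0.137) or Young2 (0.263) and with no well set aside (0.165).

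The lists of closer partners held 1 call in all. The shares of all genes called, to read these counts against, were 0.325% for arterial against capillary, 0.123% for venous against capillary and 1.81% for arterial against venous. At those shares a list of this size has few or no calls. Of the LDL receptor family and its chaperones and adaptors, 15 of 18 listed genes were in the table and 8 were tested, with 0 called in any comparison. Of 16 other scavenger receptors 11 were in the table and 2, Scarb2 and Scarf1, were tested, with 0 called. Of 8 tested genes of fatty acid uptake, 0 were called. In the Wnt receptor complex, where Lrp6 acts, 1 of 11 tested genes was lower and 0 higher in arterial than in venous wells: Apcdd1, a Wnt inhibitor and target, at 40.03 ± 26.9 against 211.99 ± 18.5 CPM (log2 -2.56 ± 0.41, edgeR, adjusted p = 0.0284, and 0.0873 without Young1, 0.283 without Young2 and 0.133 without AY_Y3). Fzd4, a Frizzled of the brain endothelium, was at 9.03, 175.9 and 119.9 CPM in arterial-marker and 230.7, 301.7 and 313.9 CPM in venous-marker wells (edgeR, adjusted p = 0.36). Fzd6, another Frizzled, was higher in arterial than in venous wells in 2 of 3 sets (log2 0.71 ± 0.42, edgeR, adjusted p = 0.59). Adgra2 was higher in 3 of 3 sets (log2 1.02 ± 0.60, edgeR, adjusted p = 0.585). The median of this list for arterial against venous was -0.68, against -0.06 for all genes. Of 5 tested tricellular junction genes, the partners of Lsr, 0 were called. Marveld2, which encodes tricellulin, was at 34.6, 54.6 and 39.9 CPM in arterial-marker wells and 0, 7.92 and 0.153 CPM in venous-marker wells. It did not pass (edgeR, adjusted p = 0.361) and had a count in only 13.2% of arterial-marker and 3.79% of venous-marker wells. The other tested genes of this list went the other way, lower in arterial than in venous wells in 3 of 3 sets. Ildr2 was at log2 -1.80 ± 0.96 and Tjp1 at -1.13 ± 0.31. Ocln was at -0.69 ± 0.20 and Cldn5 at -0.18 ± 0.11 (edgeR). The list median was -0.69, against -0.06 for all genes.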

How the data were processed

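The values were whole-number read counts per gene for 745 wells, as deposited by the authors, with no normalization. Bowtie 0.12.2 and the builds mm8 and mm10, without a role, are named per the submitters' processing notes. Not given in the sources used here: the counting tool, its annotation and whether strand was used. No gene coordinates of the authors' build are printed.

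Wells needed at least 500 genes and 50000 counts, and all passed. No doublet caller was run. A well was set aside when another cell type's marker list summed to 2000 CPM or more with at least 3 of its markers at 10 CPM or more. The members, the marker lists and the pathway lists were chosen with earlier results of these data known. All 9 receptors are named, as is every gene of a pathway list that passed the test, up to 10 a list. Values of Fzd4, Fzd6, Adgra2, Marveld2, Ildr2, Tjp1, Ocln, Cldn5, Mfsd2a, Glul and Nt5dc2 were added after they were seen. Likeness was the mean over sets of Spearman's rho of log2(CPM + 1), given from 0.3 among genes in at least 20% of wells.

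Counts were summed per set and class (9 sums) and fitted with edgeR 4.0.16 (quasi-likelihood, TMM, set as a block, R 4.3.3). The SE of an edgeR log2 fold change was derived, as the size of the change divided by the square root of the quasi-likelihood F statistic. The 6 class markers were left out. Genes needed counts in at least 5% of wells and edgeR's expression filter, which left 8932, with Benjamini-Hochberg adjustment over all of them. DESeq2 1.42.0 and limma 3.58.1 were alternatives. Wells were thinned with a fixed seed. Exon lengths came from GENCODE M21. The edgeR script was tested on simulated data. Descriptive values came from scipy 1.17.1 and pandas 2.3.3 (Python 3.11.15).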

Additional observations from a re-analysis of the deposited data

Results flagged for a closer look

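Lrp1 gave a signal in wells that the comparisons did not use. After thinning to 50000 counts, 20.7% of the 58 wells set aside for pericyte markers had an Lrp1 count (12 wells, exact 95% interval 11.2 to 33.4), against 0.901% of the 666 endothelial wells (6 wells, 0.331 to 1.95). As deposited the counts were 17 of 58 (29.3%) and 8 of 666 (1.20%). Lrp1 was also found in 2 of 13 wells with astrocyte markers, 1 of 3 with smooth muscle markers and 0 of 5 with oligodendrocyte-lineage markers. Pericyte-marker wells held a median of 2190 genes at equal depth against 1673.5 in endothelial wells, and its part in the difference was not tested.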

How the results depend on the processing

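The main edgeR fit called 0.325% of the genes tested for arterial against capillary (29 genes), 0.123% for venous against capillary (11 genes) and 1.81% for arterial against venous. In that order, DESeq2 called 6.08%, 2.68% and 10.75%, limma on mean log2 values 4.56%, 2.75% and 9.19%, the fit on all genes with any count 0.0822%, 0.0206% and 0.529%, and leaving out 1 set 0 to 0.178%, 0 to 0.111% and 0 to 1.19%. All 3 were 0 without Young2, and 0, 0 and 0.101% without AY_Y3. Venous against capillary moved to 0.0675% with markers taken at 1 count, 0.0448% at 50 CPM and 0.0771% with no well set aside. Classes from the longer lists gave 1.37% for arterial against capillary and 0 for venous against capillary. Wells thinned to 50000 counts, an alternative chosen after seeing the data, gave 1.42% for arterial against capillary and 3.78% for arterial against venous. Of the calls for arterial against capillary, 20.7% were higher by edgeR, 41.3% by DESeq2, 39.02% with the longer lists, 37.1% with thinned wells and 81.8% by limma, whose median over all genes was 0.17, 0.35 and -0.15 in the 3 comparisons. For venous against capillary 9.09% were higher by edgeR and 98.8% by limma, and for arterial against venous 57.4% and 33.01%. Without the replicate block, venous against capillary had 0.202% called. Sums of 1 set deviated together by correlations of only 0.00297 to 0.0669 over 7958 genes, each under 0.1, which left the pairing of classes by set without support from this check.

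Of the receptor values under alternatives, 88.9% kept their direction and side of the threshold, 13 moved past it and 15 changed sign, none of the latter for a value that passed. Since no receptor passed the main test, keeping its side meant staying uncalled, and no call could be lost. The share is therefore no measure of how stable a difference is. Lrp6 for arterial against capillary was 0.27 at 50 CPM and 0.38 with limma, and for venous against capillary -0.18 with the longer lists. Lrp8 for venous against capillary was 0.32 with limma. Lrp10 for arterial against venous ran from -0.46 without Young1 to 0.57 without AY_Y3, was -0.10 without Young2, -0.28 at 50 CPM, -0.0761 with the longer lists, -0.0813 with thinned wells, -0.0337 with other cell types left out at 500 CPM and -0.85 with limma. For venous against capillary the longer lists gave -0.23 for Scarb1 and -0.16 for Stab1. Lsr for arterial against venous was -0.0622 at 50 CPM and -0.48 with limma. The cause of these changes was not tested. Of 27 detection shares, 20 stayed and 7 moved under thinning, and likewise at 10 CPM or more.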

Other observations

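Wells outside the 3 tested classes also held these receptors. In the 18 wells with arterial and venous markers together, Lsr was found in 18, Scarb1 in 13, Lrp10 in 12, Lrp6 in 9, Lrp8 in 7 and Stab1 in 5. In the 10 wells with none of the 6 markers, Lsr was found in 10, Scarb1 in 4, Lrp10 in 3, Lrp6 in 2, Lrp8 in 1 and Stab1 in 0. No well of either kind had a count of Lrp1, Vldlr or Cd36.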
